A study of Mus musculus with 3 samples.

Results

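Glutamate and GABA are carried by 3 kinds of transporter, and the expression of 9 transporter genes was described here across the cell classes of the mouse prefrontal cortex (PFC). The members were chosen by name, with earlier results of these data known, and all 9 were measured among the 32285 genes of the deposited matrices. They were Slc17a7, Slc17a6 and Slc17a8 (the vesicular glutamate transporters VGLUT1, VGLUT2 and VGLUT3), Slc32a1 (the vesicular GABA transporter VGAT), Slc1a2, Slc1a3 and Slc1a1 (the glutamate transporters GLT-1, GLAST and EAAC1 of the plasma membrane) and Slc6a11 and Slc6a13 (the GABA transporters GAT3 and GAT2 of the plasma membrane). Single nucleus RNA sequencing was performed on 3 libraries of PFC nuclei from male mice of 6 to 8 weeks. The C57BL/6J library was made from the pooled PFC of 5 mice. The Nav1 KO library was made from the pooled PFC of 4 mice homozygous for a CRISPR deletion at the end of exon 1 of Nav1, on the C57BL/6J background. The BTBR library came from the inbred strain BTBR T<+> Itpr3<tf>/J, and how many mice were pooled for it is unknown here. In the study nuclei were stained with Hoechst and an antibody to the neuronal protein NeuN and sorted, and both NeuN+ and NeuN- nuclei were collected.

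Vesicular transporters load transmitter into synaptic vesicles, so they mark the neurons that release it, while plasma membrane transporters clear it from the extracellular space. In the cortex VGLUT1 is the main vesicular glutamate transporter of pyramidal neurons, VGLUT2 is known best from subcortical projections, and VGLUT3 is known from a small set of interneurons. Astrocytes take up most of the released glutamate through GLT-1 and GLAST and part of the GABA through GAT3, EAAC1 is the neuronal member of the glutamate family, and GAT2 is known from the meninges.

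Each library had 1 sample, so no test between the libraries was possible. Of 15402, 14623 and 15238 barcodes in C57BL/6J, Nav1 KO and BTBR, 14630, 14056 and 14777 nuclei were kept, with medians of 2074, 2754 and 2510 unique molecular identifiers (UMIs) per nucleus. Pairs of libraries shared 61 to 71 barcodes. The nuclei fell into 37 clusters, which were made without the 9 members among the genes that drove them and were named by markers that hold no member. In all 37743 nuclei (86.8%) were in 19 named classes, 1949 were in mixed clusters and 3771 in unnamed ones. The labels call the cells neurons, but 8 classes were not neuronal. The single markers checked for a class name were higher in that class than over all nuclei. Aqp4 was at 351 CPM in the astrocyte class and 17.8 CPM over all nuclei, and Csf1r was at 182 CPM in microglia and 7.87 CPM over all nuclei. The summed middle layer markers were not specific, at 1010, 783 and 814 CPM in astrocytes and 726, 744 and 909 CPM in their own class. Nor was the list that named the Pvalb interneurons (Lhx6, Sst and Pvalb among others). It summed to 458, 465 and 551 CPM in that class and to 614, 492 and 755 CPM in oligodendrocyte precursors. Pvalb itself was at 43.5 CPM in its class and 3.25 CPM over all nuclei. The layer 5 extratelencephalic list was weak too. In C57BL/6J it summed to 144 CPM in its own class and to 166 CPM in the fibroblasts that express Slc47a1. In Nav1 KO and BTBR it was highest in its own class (162 and 236 CPM), but oligodendrocyte precursors had 154 and 142 CPM. Olfactory bulb neurons (mitral or tufted cells and bulb interneurons) made up 1.497% of the C57BL/6J nuclei, 11.9% of the Nav1 KO nuclei and 8.38% of the BTBR nuclei. The mitral or tufted class had 48 and the ensheathing glia class 25 C57BL/6J nuclei. Most layer 2/3 nuclei of BTBR were in a cluster of their own (1430 nuclei, against 116 and 126 of the other libraries). Of the layer 6 corticothalamic class, 400 of 1434 C57BL/6J, 588 of 1222 Nav1 KO and 670 of 1229 BTBR nuclei were in 1 cluster. Its leading genes included Ccn2 and Tshz2, markers used for layer 6b and near-projecting neurons. Levels of this class may therefore mix deep layer neurons in shares that differ between libraries. Nav1, the targeted gene, was at 345 CPM in C57BL/6J, 264 CPM in Nav1 KO and 146 CPM in BTBR, and since 3' tags lie outside the deleted part of exon 1, this does not check the labels.

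A level is the counts of a gene summed over the nuclei of a class in 1 library, per 1000000 counts of those nuclei (CPM). Levels were compared within a gene and not between genes. Each interval in parentheses is an exact 95% interval and covers counting error only, not the difference between mice. Among classes with at least 50 nuclei in a library, the class with the highest level was the same in all 3 libraries for 7 of the 9 members. Slc17a8 was an exception, and so was Slc17a6, whose highest class in the other libraries held only 48 nuclei in C57BL/6J.

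Slc17a7 (VGLUT1, chr7:45163949-45176142, plus strand) was highest in the glutamatergic neurons. Its level in layer 6 corticothalamic neurons was 828 CPM in C57BL/6J, 932 CPM in Nav1 KO and 992 CPM in BTBR, which was the first place in each library. In Nav1 KO (900 to 965 CPM) and in BTBR (958 to 1027 CPM) its interval overlapped that of the mitral or tufted neurons, which stood at 891 CPM (854 to 930) and 929 CPM (875 to 985). Layer 2/3 neurons had 679, 798 and 897 CPM in C57BL/6J, Nav1 KO and BTBR. Middle layer neurons, which express Rorb, had 661, 811 and 844 CPM. The intervals of these 2 classes overlapped in every library, so their order could not be read. Layer 5 extratelencephalic neurons had 612, 702.5 and 738 CPM, the lowest levels among the cortical excitatory classes in every library.

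The level of Slc17a7 in classes that do not release glutamate was not near 0. All cortical interneurons had 300 CPM in C57BL/6J and 344 CPM in both other libraries, against 716, 822 and 916 CPM in all cortical excitatory neurons. Oligodendrocytes had 444, 431 and 525 CPM. Astrocytes had the lowest levels of all 19 classes, at 168, 208 and 185 CPM. The excitatory marker list, which holds Neurod6, Neurod2, Sv2b and Tbr1 among others, was also found there, since its summed level was 2614, 2095 and 2172 CPM in the excitatory neurons and still 1695, 1223 and 1437 CPM in the oligodendrocytes. After each nucleus was thinned to 1000 UMIs, 50.6%, 55.8% and 58.9% of the excitatory nuclei held a Slc17a7 UMI, against 29.9%, 29.7% and 33.5% of the oligodendrocytes, 28.99%, 24.4% and 26.96% of the microglia and 14.4%, 16.2% and 14.4% of the astrocytes. The astrocytes had the lowest shares of these classes, and the source of the Slc17a7 UMIs there was not tested. Without thinning the shares were 76.7%, 85.9% and 85% in excitatory neurons (medians of 2344, 3078 and 2732.5 UMIs), 45.4%, 50.6% and 43.1% in oligodendrocytes (medians of 1566.5, 2049 and 1592.5 UMIs), 46.8%, 42.7% and 61.3% in microglia and 20.4%, 24.5% and 24.2% in astrocytes (medians of 1203, 1626.5 and 1803 UMIs).

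**Figure D1:**
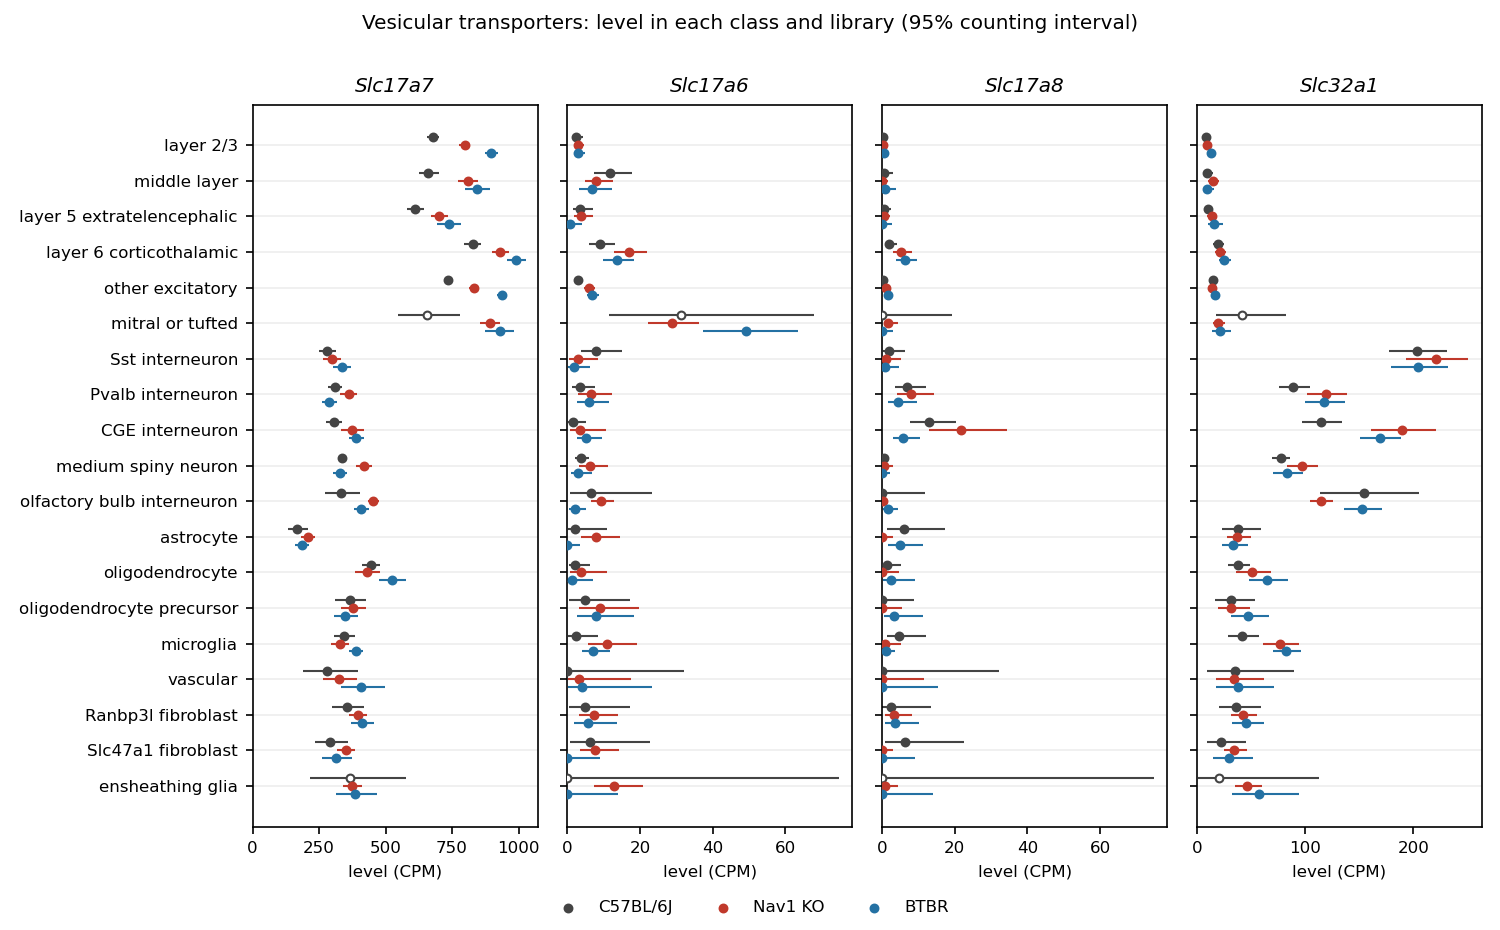
Level (CPM, horizontal axes) of the 4 vesicular transporters in 19 classes (rows) and 3 libraries (colours). Points are the summed counts of a class, lines their exact 95% counting intervals, and open points mark classes with under 50 nuclei. Slc17a7 stood at 612 to 992 CPM in the 5 cortical excitatory classes, and Slc32a1 was highest in Sst interneurons in each library.

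Slc17a6 (VGLUT2, chr7:51622006-51671119, plus strand) was rare. In mitral or tufted neurons of the olfactory bulb it was at 28.7 CPM in Nav1 KO (69 counts) and 49.2 CPM in BTBR (59 counts), and the small C57BL/6J class had 6 counts (31.2 CPM, interval 11.5 to 67.9). In layer 6 corticothalamic neurons it was at 9.06, 17.03 and 13.7 CPM, and in middle layer neurons at 11.8, 8.01 and 6.72 CPM. Layer 2/3 neurons were lower, at 2.46, 3.0 and 2.97 CPM. Of the counts of Slc17a6 and Slc17a7 together, Slc17a6 made up 4.55%, 3.12% and 5.03% in the mitral or tufted class and 0.642%, 0.798% and 0.697% in all cortical excitatory neurons. The interval of the bulb class was wide in C57BL/6J (1.69% to 9.63%), and in each library it lay above that of the cortical neurons. The share was not particular to the bulb neurons in Nav1 KO. There it was 3.68% in astrocytes (1.78% to 6.66%), 3.31% in ensheathing glia (1.91% to 5.32%) and 3.23% in microglia (1.68% to 5.57%). The intervals of these classes also overlapped that of the bulb class in C57BL/6J, and in BTBR they lay below it. Astrocytes held 1, 10 and 0 counts (1.98, 7.94 and 0 CPM), so the level in layer 2/3 neurons was not separable from that of a class outside the neurons. In Nav1 KO microglia held 12 counts (10.9 CPM) and ensheathing glia 16 counts (12.8 CPM). Both were above the middle layer neurons of that library, whose level was therefore not separable either. Both were below its layer 6 corticothalamic neurons, but the counting intervals of those neurons overlapped those of both classes. The layer 6 level of Nav1 KO was therefore not separable from them either.

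Slc17a8 (VGLUT3, chr10:89574020-89621253, minus strand) was the rarest member, with 63, 75 and 112 counts in the whole libraries. Interneurons of the CGE type had 12.9 CPM in C57BL/6J (18 counts in 9 nuclei), 21.7 CPM in Nav1 KO (18 counts in 5 nuclei) and 5.78 CPM in BTBR (11 counts in 10 nuclei). A single nucleus held 11 of the 18 Nav1 KO counts, so the order of the libraries rested on a few nuclei. Pvalb interneurons had 6.88, 7.93 and 4.38 CPM, and their intervals overlapped those of the CGE class in every library. Layer 6 corticothalamic neurons had 1.87, 5.19 and 6.21 CPM, with the 6, 18 and 20 counts spread over 6, 17 and 17 nuclei. Over the 3 libraries the classes that are not neuronal had 0 to 6.27 CPM where they held at least 50 nuclei. The layer 6 levels, and those of the CGE and Pvalb interneurons in BTBR, lay within this range. They were therefore not set apart from the levels of classes outside the neurons. Among all cortical interneurons, nuclei with a UMI of Cck, a neuropeptide of a known VGLUT3 type, held 13.3, 13.99 and 4.76 CPM against 3.23, 3.87 and 3.40 CPM in nuclei without one. In BTBR the intervals of these groups overlapped (2.28 to 8.75 and 1.47 to 6.70 CPM). Nuclei with a Vip UMI held 1 of the 80 counts, and those with an Sst UMI 8 of them. Sncg, chosen after its values were seen, was found in 17 interneurons, and 4 of these, all from Nav1 KO, held 13 counts.

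Slc32a1 (VGAT, chr2:158610767-158615748, plus strand) followed the GABAergic neurons. Sst interneurons had the highest level in each library, at 203, 220 and 204 CPM. CGE interneurons had 114 CPM (97.4 to 134) in C57BL/6J, 189 CPM (161 to 221) in Nav1 KO and 169 CPM (151 to 188) in BTBR. In Nav1 KO and BTBR these intervals overlapped those of the Sst interneurons (193 to 251 and 179 to 232 CPM). Bulb interneurons had 155, 115 and 153 CPM and Pvalb interneurons 88.8, 119 and 118 CPM. Medium spiny neurons, the projection neurons of the striatum, had the lowest level of the 5 GABAergic classes, at 77.6, 97.1 and 83.1 CPM. The interval of the Pvalb class overlapped that of the medium spiny neurons in C57BL/6J and Nav1 KO.

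All cortical excitatory neurons together had 12.9, 13.5 and 16.5 CPM of Slc32a1. The 8 classes that are not neuronal had 21.9 to 82.5 CPM where they held at least 50 nuclei, with microglia at 41.5, 76.3 and 82.5 CPM. The inhibitory list, which holds Gad1, Gad2, Dlx6os1 and Dlx1 among others, summed to 342, 387 and 485 CPM in microglia and to 735, 698 and 913 CPM in the cortical interneurons. At 1000 UMIs a Slc32a1 UMI was held by 15.4%, 19.2% and 18.4% of the interneurons, by 1.405%, 1.47% and 1.86% of the excitatory neurons and by 2.31%, 2.12% and 2.76% of the astrocytes. Without thinning the interneuron shares were 30.6%, 46.2% and 36.6%. Nuclei with UMIs of both Slc17a7 and Slc32a1 were rare among the thinned interneurons (23 of 1162, 23 of 739 and 37 of 1271), and Slc17a7 was held by 12.8%, 16.2% and 15.8% of those with a Slc32a1 UMI and by 18.6%, 21.4% and 23.4% of those without.

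Slc1a2 (GLT-1, chr2:102658659-102790784, plus strand) is the transporter that clears most glutamate in the forebrain. Astrocytes had 4726 CPM in C57BL/6J, 3289 CPM in Nav1 KO and 3149 CPM in BTBR, the highest level of all classes in each library. The next highest level of a class with at least 50 nuclei was 1040, 628 and 796 CPM, in vascular cells of C57BL/6J and in microglia of the other libraries. Among neurons, layer 6 corticothalamic neurons had 717, 551 and 568 CPM and middle layer neurons 538, 423 and 371 CPM. Layer 2/3 neurons had 296, 209 and 198 CPM and layer 5 extratelencephalic neurons 309, 223 and 201 CPM, and the intervals of these classes overlapped in each library. Pvalb interneurons had 228, 151 and 143 CPM, and medium spiny neurons had 231, 176 and 141 CPM.

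At least 6 of 9 astrocyte markers that hold no member were detected in each class of each library, so each level was set against the summed level of these markers (Aqp4, Gja1, Gfap, Aldh1l1, Slc4a4, Gpc5, Ntsr2, Acsbg1 and Bmpr1b). In layer 6 corticothalamic neurons Slc1a2 was at 15.2%, 16.8% and 18.03% of its astrocyte level, while the marker list was at 2.89%, 2.63% and 3.02% of its own. In middle layer neurons Slc1a2 was at 11.4%, 12.9% and 11.8% and the list at 3.39%, 3.17% and 3.07%. In each of the 5 cortical excitatory classes of each library the percentage of Slc1a2 was above that of the list. In the GABAergic classes Slc1a2 was above the list in 8 of 15 values. CGE interneurons were above it in each library, with Slc1a2 at 6.84%, 6.55% and 7.59% and the list at 5.23%, 3.55% and 4.38%. In medium spiny neurons the order was the opposite, with Slc1a2 at 4.89%, 5.36% and 4.48% and the list at 12.6%, 9.40% and 10.0%. In Pvalb interneurons Slc1a2 was at 4.83%, 4.58% and 4.54% and the list at 6.74%, 4.53% and 5.86%. At 1000 UMIs 47.1%, 39.2% and 39.3% of the layer 6 corticothalamic nuclei held a Slc1a2 UMI, against 17.2%, 11.6% and 12.3% of the Pvalb interneurons and 95.4%, 85.5% and 88.7% of the astrocytes. Without thinning these shares were 65.6%, 65.3% and 63.5% in layer 6, 39.5%, 36.7% and 29.8% in Pvalb interneurons and 95.7%, 92.6% and 95.8% in astrocytes.

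**Figure D2:**
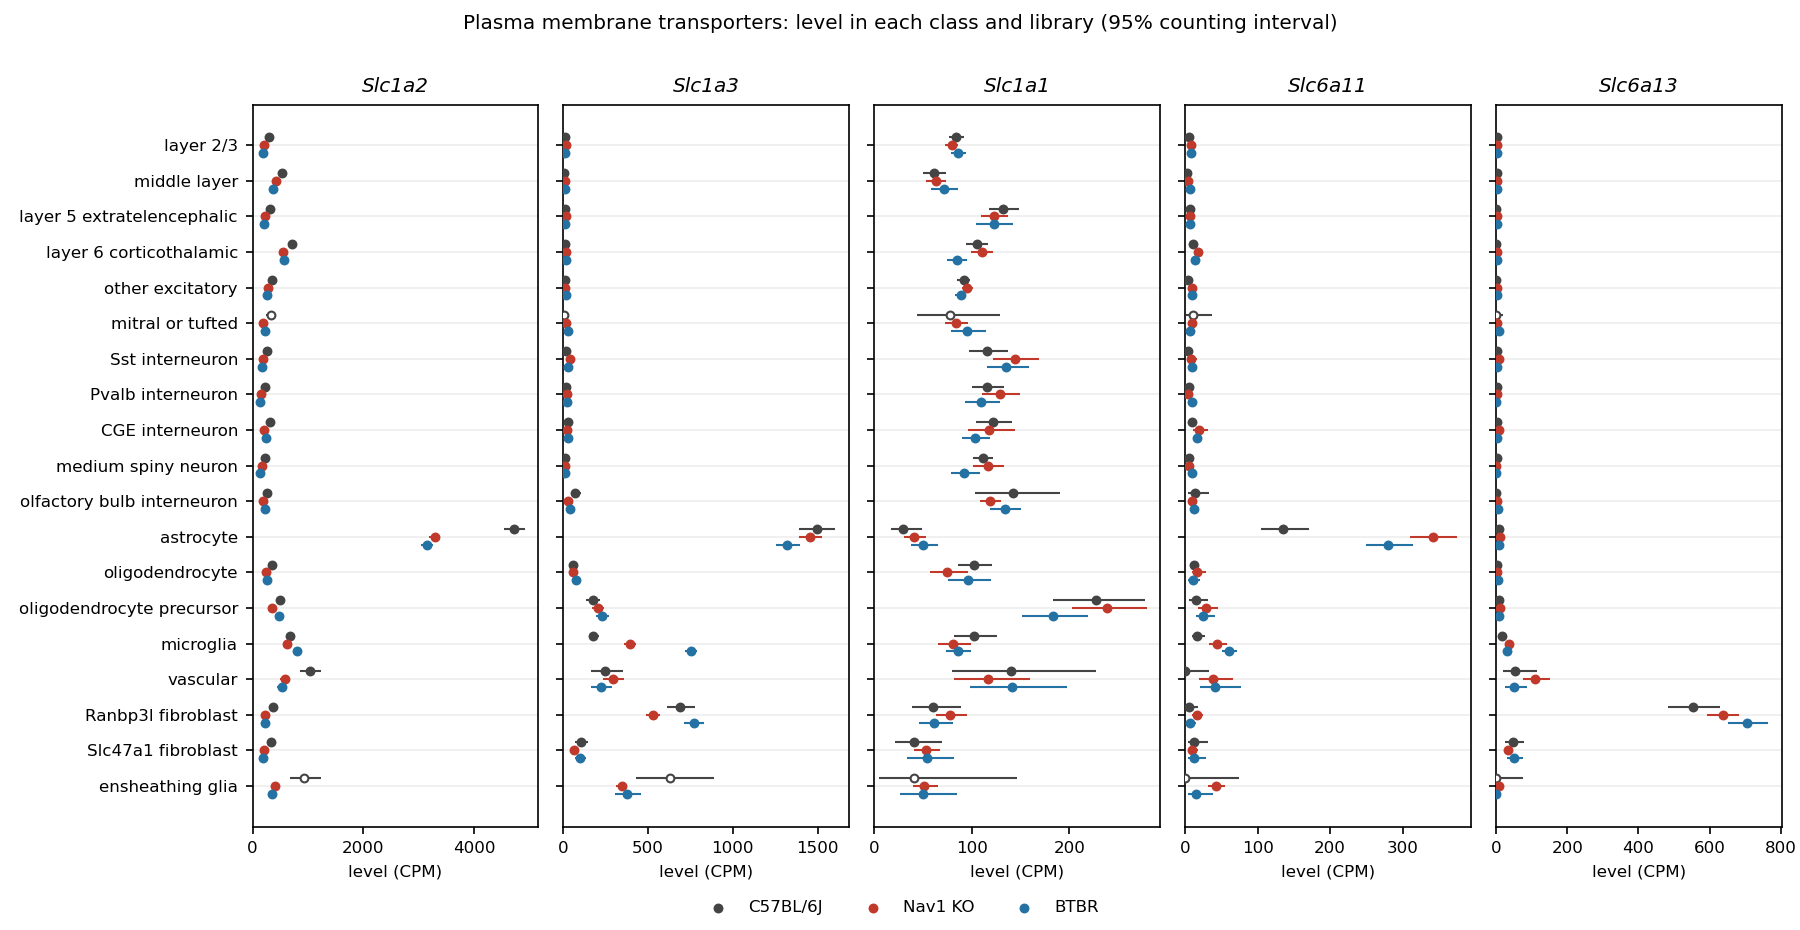
Level (CPM, horizontal axes) of the 5 plasma membrane transporters in 19 classes (rows) and 3 libraries (colours). Points are the summed counts of a class, lines their exact 95% counting intervals, and open points mark classes with under 50 nuclei. Slc1a2, Slc1a3 and Slc6a11 were highest in astrocytes, Slc1a1 in oligodendrocyte precursors and Slc6a13 in the Ranbp3l fibroblasts.

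Slc1a3 (GLAST, chr15:8634124-8710764, minus strand) was also highest in astrocytes, at 1495, 1458 and 1322 CPM. Its level in the 5 cortical excitatory classes was 5.90 to 17.1 CPM, and it was never above the percentage of the astrocyte list in a neuronal class of any library. A second site of expression was the class of fibroblasts that express Ranbp3l, a marker of the meninges, with 690, 527 and 769 CPM. There Slc1a3 was at 46.1%, 36.2% and 58.1% of its astrocyte level and the marker list at 12.2%, 12.4% and 13.2%. The other fibroblast class, which expresses Slc47a1, had 103, 61.0 and 95.5 CPM although its marker list was higher, at 455, 499.7 and 779 CPM against 274, 344 and 366 CPM. Microglia had 177 CPM (149 to 207) in C57BL/6J, 391.6 CPM (355 to 430) in Nav1 KO and 753 CPM (716 to 791) in BTBR, and these intervals did not overlap. As a percentage of the astrocyte level this was 11.8%, 26.9% and 56.95%, beside 16.6%, 18.99% and 22.6% for the list. Oligodendrocyte precursors had 172, 203 and 227 CPM, and the ensheathing glia of the olfactory nerve had 344 CPM in Nav1 KO and 377 CPM in BTBR.

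**Figure D3:**
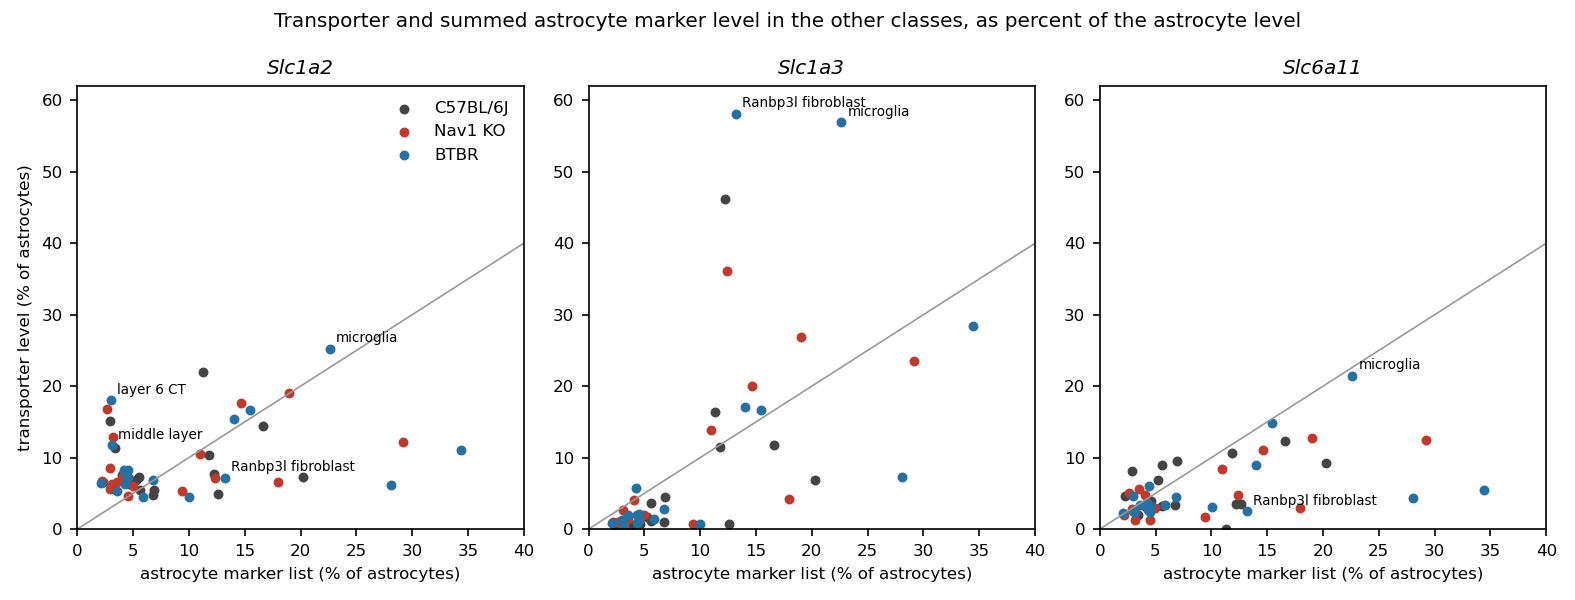
Level of a transporter as a percentage of its level in astrocytes (vertical axes) against the same percentage for the summed astrocyte marker list (horizontal axes), for each other class with at least 50 nuclei (points) in 3 libraries (colours). The line marks equal percentages. Layer 6 corticothalamic neurons lay above it for Slc1a2 (15.2% to 18.03% at a list percentage of 2.63% to 3.02%), and the Ranbp3l fibroblasts lay above it for Slc1a3.

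Slc1a1 (EAAC1, chr19:28835049-28913960, plus strand) was spread over many classes. Oligodendrocyte precursors had the highest level in each library, at 227, 239 and 183 CPM. The 11 neuronal classes had 61.1 to 144 CPM, and the middle layer neurons were at the low end, with 61.1, 62.8 and 71.2 CPM. Layer 5 extratelencephalic neurons had 132, 123 and 123 CPM, the highest level of the cortical excitatory classes. Astrocytes had 29.7, 40.5 and 49.9 CPM. A gene on the opposite strand, 4430402I18Rik, overlaps Slc1a1, and whether counting used strand is not given in the sources used here, so reads of both genes may not be told apart. Slc32a1 and Slc1a2 also overlap an annotated antisense gene (Gm14205 and Gm13872).

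Slc6a11 (GAT3, chr6:114131241-114249952, plus strand) was at 135 CPM (105 to 171) in astrocytes of C57BL/6J, 342 CPM (310 to 375) in Nav1 KO and 280 CPM (249 to 314) in BTBR. The C57BL/6J interval lay below the others, and the other intervals met only at their ends. All cortical excitatory neurons had 5.67, 9.16 and 8.94 CPM and microglia 16.6, 43.6 and 60.2 CPM. At 1000 UMIs 15.3%, 25.8% and 26.2% of the astrocytes held a Slc6a11 UMI (16.98%, 37.3% and 36.8% without thinning), against 0.562%, 1.15% and 1.00% of the excitatory neurons.

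Slc6a13 (GAT2, chr6:121300227-121337733, plus strand) was found mostly in 1 class. The Ranbp3l fibroblasts had 553, 637 and 706 CPM. The next class was the vascular cells, with 52.4, 110 and 49.9 CPM, and the Slc47a1 fibroblasts had 47.0, 34.3 and 49.0 CPM. The neuronal classes had 0 to 8.43 CPM, and astrocytes 7.92, 9.53 and 6.72 CPM. At 1000 UMIs 28.6%, 47.9% and 47.3% of the Ranbp3l fibroblasts held a Slc6a13 UMI, but 183 of 288, 134 of 539 and 213 of 494 nuclei of this class were left out as shallower. Without thinning the shares were 47.6%, 66.6% and 64.8%, against 1.23%, 1.45% and 1.32% of the astrocytes.

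For each member the 3 genes with the most similar pattern were taken over 55 points, each a class in 1 library with at least 50 nuclei, by Pearson's r of log2(CPM + 1) among 12707 genes. The points share 3 libraries and are not independent. Closest to Slc17a7 were Syt7 (r = 0.860), Stx1a (0.834) and Rapgefl1 (0.821). Closest to Slc32a1 were Gad2 (r = 0.945), Gad1 (0.916) and Dlx6os1 (0.875), of which the first 2 code for the enzymes that make GABA. Among the genes closest to Slc1a3 were Apoe (r = 0.958) and Glul (0.938), of which Glul codes for glutamine synthetase, while Slc1a2 was closest to Cldn10 (0.855), Paqr8 (0.829) and Phkg1 (0.822). Slc6a11 was closest to Mlc1 (r = 0.849), Acsl3 (0.843) and Lfng (0.835). Slc6a13 was closest to Colec12 (r = 0.920), Ranbp3l (0.915) and Slc6a20a (0.912), and Slc1a1 to its overlapping neighbour 4430402I18Rik (0.885), Nkain3 (0.755) and Cntn1 (0.745). The rare members had weaker partners, which were Lrrc55 (0.673), Tmem40 (0.645) and Tmem132d (0.608) for Slc17a6, and Pnoc (0.568), Trpc4ap (0.538) and Vip (0.530) for Slc17a8.

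The Nav1 KO and BTBR libraries were then each compared with the C57BL/6J library, which both comparisons share. A pair of a member and a class was compared where the 2 libraries held at least 100 counts, and it was called where the ratio of the levels was at least 1.5 or at most 1/1.5. For Nav1 KO 76 of 171 pairs were compared, of which 5 were called higher and 10 lower. Over all genes and classes 12.3% of the pairs were called, 4.76% higher and 7.51% lower. The median ratio of the 76 pairs was 1.04. For BTBR 74 pairs were compared, of which 8 were called higher and 10 lower, beside 14% of all gene and class pairs (7.79% higher and 6.21% lower). The median ratio of the 74 pairs was 1.06. Most of the lower calls were of 1 gene, Slc1a2, which made up 7 of the 10 in Nav1 KO and 9 of the 10 in BTBR.

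**Figure D4:**
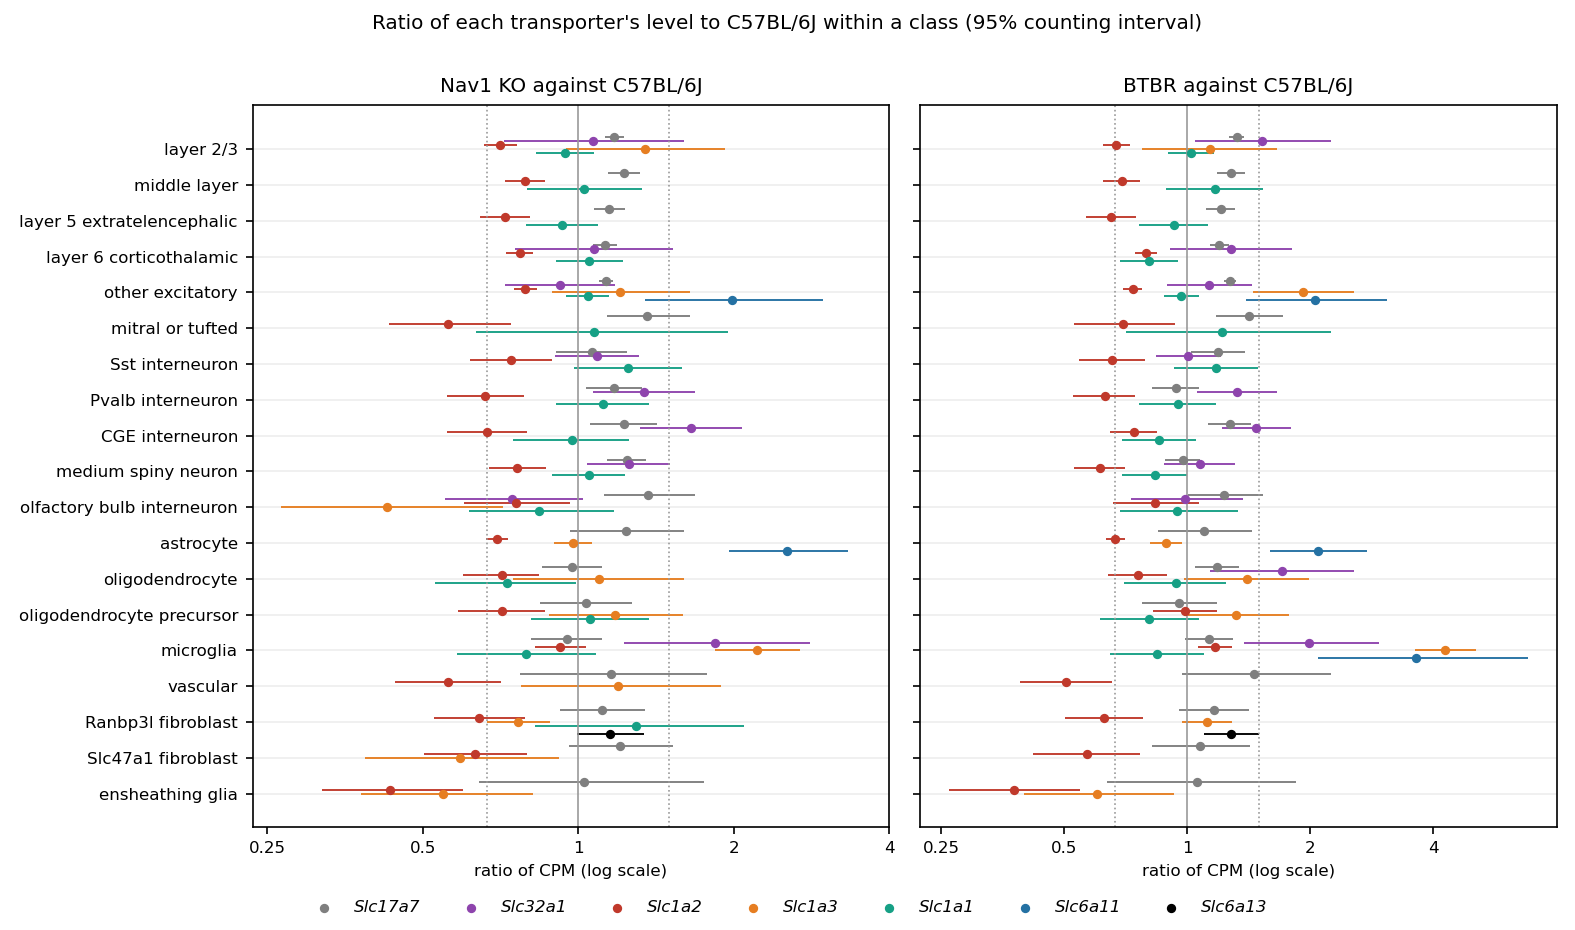
Ratio of the level of a transporter to its level in C57BL/6J (horizontal axes, log scale) in each class (rows), for Nav1 KO (left) and BTBR (right), where the 2 libraries held at least 100 counts. Lines are exact 95% counting intervals, the solid vertical line marks a ratio of 1 and the dotted lines 1.5-fold. Slc1a2 lay below 1 in 19 of 19 classes of Nav1 KO and in 18 of 19 of BTBR, where microglia were the exception.

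Slc1a2 was lower in Nav1 KO than in C57BL/6J in 19 of 19 classes. The ratio ran from 0.433 in ensheathing glia to 0.923 in microglia, with a median of 0.710, and 18 of the 19 intervals lay under 1. Of 342 genes with at least 100 counts in each class, 33.9% were also under 1 in at least 17 classes. In BTBR Slc1a2 was lower in 18 of 19 classes, with a median ratio of 0.670, and microglia were the exception at 1.17. Here 27% of 189 such genes were under 1 in at least 17 classes. With each library clustered on its own, Slc1a2 was under 1 in 12 of 14 classes of Nav1 KO and in 15 of 16 of BTBR, with astrocytes among the exceptions in both. The lower values were seen in classes above the percentage of the astrocyte list and in classes below it. The median ratio of all genes compared was 0.898 to 0.989 over the classes of Nav1 KO and 0.969 to 1.09 over those of BTBR. In layer 6 corticothalamic neurons the level was 717 CPM in C57BL/6J, 551 CPM in Nav1 KO and 568 CPM in BTBR, under the fold. Pvalb interneurons were called in both, at 228 CPM against 151 CPM (ratio 0.661, 0.556 to 0.783) and 143 CPM (0.627, 0.526 to 0.746), beside 6.54% and 4.97% of genes called lower in this class. In astrocytes the ratio was 0.696 in Nav1 KO and 0.666 (0.632 to 0.703) in BTBR, of which only BTBR passed the fold.

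Slc6a11 differed from Slc1a2 in direction in the same astrocytes. Its level was 2.54 times (1.96 to 3.33) that of C57BL/6J in Nav1 KO and 2.08 times (1.59 to 2.75) in BTBR. In the astrocyte class 12% of the genes compared were called in Nav1 KO and 15.5% in BTBR. Slc1a3 was within the fold there, at 0.975 and 0.885, when the libraries were clustered together. The summed level of the 9 astrocyte markers in this class was 2245 CPM in C57BL/6J, 2784 CPM in Nav1 KO and 2775 CPM in BTBR, and its median depth was 1203, 1626.5 and 1803 UMIs. A mixed cluster was led by astrocyte genes (287, 364 and 398 nuclei), and 53.3% of its nuclei had doublet scores in the highest 10%. It gave the same directions for Slc6a11 and Slc1a2 but not for Slc1a3, which had ratios of 1.16 (1.01 to 1.34) and 1.18 (1.02 to 1.36). There Slc6a11 was at 29.6, 51.1 and 66.3 CPM, with ratios of 1.73 (1.08 to 2.87) and 2.24 (1.42 to 3.68), and Slc1a2 was at 1279, 898 and 939 CPM, with ratios of 0.703 and 0.734. The share of olfactory bulb neurons was higher in both of these libraries, as given above, and its part in the astrocyte values was not tested. When each library was clustered on its own, the C57BL/6J astrocyte class held 596 nuclei with a marker sum of 1398 CPM, against 329 nuclei and 3201 CPM in BTBR. The ratios of Slc1a2 were then 1.24 in Nav1 KO and 1.31 in BTBR, the opposite direction, and those of Slc1a3 were 1.59 and 1.71, past the fold. Those of Slc6a11 were 4.35 and 3.65. In this C57BL/6J class Slc1a2, Slc1a3 and Slc6a11 were at 2959, 925 and 84.7 CPM. Each was lower than in the class of the joint clustering, and all ratios of the 3 genes were higher. A ratio already above the fold could only move further from it. This clustering therefore cannot decide whether the Slc6a11 ratio is steadier than those of Slc1a2 and Slc1a3.

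The nuclei with both transporters were counted in the thinned astrocytes. In Nav1 KO 74.6% of those with a Slc6a11 UMI held a Slc1a2 UMI and 89.4% of those without one did, while these shares were 90.9% and 96.2% in C57BL/6J and 87.4% and 89.1% in BTBR. The start regions of the 3 astrocyte members are shown because these genes were highest in the same class while their ratios to C57BL/6J differed, in a way that depended on the clustering. The sequences are those of RefSeq on GRCm38.p6, in which all 9 members had an entry (13 entries in all). They are the 250 bases before the start, cut for Slc1a2 before an annotated untranslated exon, and the start used for Slc1a2 lies inside the gene record given above. Capitals mark the motif of nuclear factor I (TTGGC, or GCCAA on the other strand) and the core of SOX factors (ACAAT, or ATTGT), which were searched on both strands.
Slc1a2, chr2:102706188-102706355, plus strand: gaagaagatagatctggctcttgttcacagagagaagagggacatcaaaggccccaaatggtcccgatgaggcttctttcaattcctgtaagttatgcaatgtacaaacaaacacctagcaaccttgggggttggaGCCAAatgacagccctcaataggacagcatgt
Slc1a3, chr15:8710808-8711057, minus strand: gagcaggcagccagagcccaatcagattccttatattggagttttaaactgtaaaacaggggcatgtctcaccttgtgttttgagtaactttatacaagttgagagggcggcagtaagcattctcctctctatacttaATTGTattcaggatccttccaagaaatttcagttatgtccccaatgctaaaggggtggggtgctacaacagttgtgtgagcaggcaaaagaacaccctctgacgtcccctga
Slc6a11, chr6:114130991-114131240, plus strand: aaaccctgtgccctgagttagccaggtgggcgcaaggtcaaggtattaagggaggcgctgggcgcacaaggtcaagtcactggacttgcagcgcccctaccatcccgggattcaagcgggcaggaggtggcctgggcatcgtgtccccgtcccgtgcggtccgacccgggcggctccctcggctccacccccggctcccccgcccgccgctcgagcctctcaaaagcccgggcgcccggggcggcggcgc
In the 250 bases Slc1a2 held 1 nuclear factor I motif and no SOX core, Slc1a3 the reverse, and Slc6a11 neither, so no match of 1 motif overlapped the other. Among 32851 promoters of this length 41.5% held the nuclear factor I motif and 27.7% the SOX core, so the matches of Slc1a2 and Slc1a3 are common ones. The base composition differed more, with 71.2% G and C and 25 CG pairs for Slc6a11 against 44.8% and 1 CG pair for Slc1a2. Slc1a3 had 44.8% and 2 CG pairs, and the median of all promoters was 6 CG pairs. The Slc1a2 values cover all 250 bases before a start inside its gene record, with the exon bases that are not printed.

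In microglia 2 members were called in Nav1 KO and 3 in BTBR, all higher than in C57BL/6J, beside 5.03% and 8.96% of genes called higher there. Slc1a3 had a ratio of 2.22 (1.84 to 2.69) in Nav1 KO and 4.26 (3.60 to 5.08) in BTBR. At 1000 UMIs 11.6%, 29.8% and 47.4% of the microglia held a Slc1a3 UMI (28.2%, 40.9% and 83.9% without thinning). Slc32a1 had ratios of 1.84 and 1.99, and Slc6a11 in BTBR a ratio of 3.63 (2.08 to 6.82). Some marker lists of other cells were higher in these libraries and others were lower, and the part of other cells in these values was not tested. Among the lower ones in microglia were the excitatory list, at 1571, 1086 and 1126 CPM, and the medium spiny neuron list, at 831, 533 and 506 CPM. All 9 astrocyte markers were detected in the microglia of each library, and their sum was 373, 529 and 628 CPM, while the sum of the inhibitory list was 342, 387 and 485 CPM. The depth of the BTBR microglia was also higher, at a median of 4063 UMIs against 2669.5 and 2440. The 8 microglial markers summed to 1249, 1837 and 1318 CPM. With each library clustered on its own, the BTBR microglia were 206 nuclei with a median of 1977 UMIs and a marker sum for astrocytes of 194 CPM, below the 411 CPM of C57BL/6J. In these nuclei Slc1a3 was at 671 CPM against 231 CPM in C57BL/6J (ratio 2.90), while Slc6a11 was at 10.1 CPM against 23.5 CPM.

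No pair of Slc17a7 was called. In Nav1 KO its ratio was over 1 in 17 of 19 classes with a median of 1.16, and 17.8% of the 342 genes compared in every class were over 1 in at least 17. In BTBR it was over 1 in 16 of 19 classes with a median of 1.19. Of 189 genes 29.1% were over 1 in at least 17 classes, a limit that Slc17a7 did not reach here. In all cortical excitatory neurons, where Slc17a7 was at 716, 822 and 916 CPM, the sum of the excitatory markers was 2614, 2095 and 2172 CPM. Slc32a1 was called in CGE interneurons of Nav1 KO, with a ratio of 1.65 (1.32 to 2.07) beside 3.47% of genes called higher there, and stood at 1.47 in BTBR. With a clustering resolution 1.5 times higher, the Nav1 KO ratio was 1.27, under the fold. The CGE class held 445, 200 and 596 nuclei, and its own marker list summed to 2847, 4282 and 3512 CPM there. The inhibitory list summed to 1188, 1168 and 1255 CPM in this class, and the part of its makeup in the Slc32a1 ratios was not tested. In Sst interneurons the ratios of Slc32a1 were 1.09 and 1.01, and in bulb interneurons 0.743 and 0.987. Slc1a1 was called in no class, with ratios of 0.727 to 1.29 in Nav1 KO and 0.804 to 1.22 in BTBR. Slc6a13 in the Ranbp3l fibroblasts had ratios of 1.15 and 1.28.

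Over the whole libraries all 9 members were compared and 4 were called higher in each comparison, beside 15.2% of genes called in Nav1 KO (9.19% higher) and 18.3% in BTBR (11.1% higher). These were Slc17a6 (1.95 and 1.62), Slc1a3 (1.87 and 1.98), Slc6a11 (2.73 and 2.43) and Slc6a13 (2.64 and 1.98). The classes made up different shares of the libraries. When the level of each class was weighted by its share in C57BL/6J, the ratios were 1.56 and 1.26 for Slc17a6, 1.01 and 1.14 for Slc1a3, 1.98 and 1.81 for Slc6a11 and 1.22 and 1.31 for Slc6a13. Slc6a11 was thus the member whose call held in both comparisons with the C57BL/6J makeup.

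Around the transporters, 25 other genes of the glutamate and GABA cycle were compared, among them glutamine synthetase, the glutaminases and the amino acid exchangers. In Nav1 KO 190 of 475 pairs of gene and class were compared, with 14 called higher and 16 lower and a median ratio of 0.9854, beside 4.76% and 7.51% of all gene and class pairs. In BTBR 180 were compared, with 16 higher and 3 lower and a median of 1.07, beside 7.79% and 6.21%. In astrocytes of Nav1 KO 1 of 11 genes was called, beside 12% of all genes. This was the glycine transporter Slc6a9, at 120 CPM against 11.9 CPM (151 and 6 counts, ratio 10.1, interval 4.53 to 28.0), and in BTBR it was at 72.0 CPM with too few counts to be compared. Glul, which makes glutamine in astrocytes, was at 356, 363 and 402 CPM there. In cortical excitatory neurons of Nav1 KO 2 of 20 genes were called, both lower, beside 9.29% of all genes. Among them was the taurine transporter Slc6a6, at 195 CPM against 301 CPM (ratio 0.648). In those of BTBR 3 of 20 were called, beside 14.9%, all higher, and these were the glutamine transporter Slc38a3 (1.83), Slc6a9 (1.53) and the amino acid exchanger Slc7a10 (2.26). Slc7a10 was also among the leading genes of the astrocyte cluster. The astrocyte list summed to 111 CPM in these BTBR neurons against 84.6 CPM in C57BL/6J, and the part of astrocyte RNA in these calls was not tested. In cortical interneurons Slc6a9 was called in Nav1 KO (1.76) and the glutamate transporter Slc1a6 in BTBR (1.96), beside 8.09% and 12.1% of genes. In oligodendrocytes 9 genes of the list were compared in each library and none was called, beside 15.2% and 12.4% of all genes there.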

How the data were processed

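Nuclei of the PFC were profiled with the 10x Chromium 3' v3.1 chemistry, 1 library per group. The authors deposited raw UMI counts per gene and barcode, made with Cell Ranger 6.0.0 on mm10, and whether intronic reads or strand were used is not given in the sources used here. Kept nuclei had 200 or more genes detected and a mitochondrial share below 10%. Counts were scaled to 10000 per nucleus and logged, and 2000 variable genes without the members gave 30 principal components, 15 neighbors and Leiden clusters at resolution 2.5 (scanpy 1.11.5). A cluster was named where the median fold of a marker list over all other nuclei was at least 2 (layers 1.4), with 3 markers detected and 1 or more among its 10 leading genes. Remaining clusters were called other excitatory where the fold of the excitatory list was at least 1 and at least 2 times that of the inhibitory list. Clusters with over 25% of their nuclei among the 10% with the highest doublet scores were called mixed. So were those with a second unrelated list at 2-fold, if its fold also reached a set share of the first list's fold. The microglia and vascular clusters kept their names by this rule, with second lists at 2.70-fold (oligodendrocyte) and 2.17-fold (meningeal fibroblast). Scrublet called 1, 1 and 0 doublets, so it had not worked, and only its scores were used. Resolution and naming thresholds were set after the data were seen, and the members and lists were chosen with earlier results of these data known. Named genes were the 9 members, the called genes of the cycle list in the classes described, and the 3 closest genes per member, of which some are not reported here. Counts were summed per class and library, with exact Poisson intervals for levels and exact binomial intervals for ratios and shares. The summed counts kept were 38701384, 50962468 and 48936236. No column of another sample was found. Ratios were tested on simulated data, and alternatives were other scalings (edgeR 4.0.16, DESeq2 1.42.0), filters, thresholds and clusterings.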

Additional observations from a re-analysis of the deposited data

Results flagged for a closer look

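Slc1a3 was lower than in C57BL/6J in some classes and higher in others, and the differences between classes were not tested. In Nav1 KO its ratio was 2.22 in microglia, 0.426 in olfactory bulb interneurons, 0.590 in Slc47a1 fibroblasts and 0.547 in ensheathing glia. In BTBR its ratio was 4.26 in microglia, 1.92 in other excitatory neurons and 0.600 in ensheathing glia. The ensheathing class held 25 nuclei in C57BL/6J.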

How the results depend on the processing

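No paired analysis was possible because each group had 1 library. Among classes with at least 50 nuclei, the number of members highest in the same class in all 3 libraries was 7, and 4 with a clustering resolution of 1, chosen after seeing the data. At that resolution no cluster was named astrocyte, so Slc1a2, Slc1a3 and Slc6a11 could not be placed in their highest class. Against 15 called pairs in Nav1 KO and 18 in BTBR, a minimum of 20 counts gave 37 and 39, a minimum of 1 count 70 and 70, and a 2-fold limit 4 and 5. Against 4 members called in each whole library, the 2-fold limit gave 2 and 1, and weighting by the C57BL/6J class shares gave 2 and 1. Of the called ratios 3 changed direction, all in BTBR, and the cause was not tested. With each library clustered on its own, Slc1a2 in astrocytes was at 1.31 (and at 1.24 in Nav1 KO, where it was not called) and Slc6a11 in microglia at 0.432, and with 20 principal components Slc1a3 in other excitatory neurons was at 0.897. With TMM scaling 14 of 19 called ratios stayed past the fold in Nav1 KO and 20 of 22 in BTBR. Rare members, above all Slc17a6 and Slc17a8, are limited by their counts, and with 1 library per group the spread between mice is unknown.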
